A study of Mus musculus with 32 samples.

Results

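The genes described here are 9 erythroid genes: the adult α-globin genes Hba-a1 and Hba-a2, the adult β-globin genes Hbb-bs and Hbb-bt, the transcription factor genes Gata1 and Klf1, the heme enzyme gene Alas2, the erythropoietin receptor gene Epor and the anion exchanger gene Slc4a1. They were chosen by symbol, with no measured value in the rule, from 28827 genes listed in either of the RNA-seq tables. Of the 9 genes, 8 were listed among the 26560 genes of the Lin- table and 9 among the 25887 genes of the CD11b+ table. The study asked what the RNA-binding protein IGF2BP3 binds and regulates in leukemia driven by MLL-Af4, a fusion of the genes MLL and Af4, and it held 32 libraries: 12 of RNA-seq, 10 of eCLIP and 10 size-matched inputs (smInput). eCLIP, an enhanced crosslinking and immunoprecipitation assay, reads the RNA fragments that stay bound to an immunoprecipitated protein.

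Lin- cells were mouse bone marrow cells depleted of lineage-positive cells, transduced with a retrovirus carrying MLL-Af4, selected with G418 and cultured with cytokines that included SCF, IL-6 and FLT3, a mixture in which erythropoietin is not named. CD11b+ cells were selected with an antibody to CD11b, an integrin of myeloid cells, from splenic tumors of irradiated mice transplanted with MLL-Af4-transduced marrow. For the transplants, the methods name fluorouracil-enriched marrow of female donors and lethally irradiated female recipients of a B6.SJL strain. The methods name donors and recipients of 8 weeks of age for the transplants and give no age for the Lin- cultures. Red cells were lysed before either selection. For each cell type the RNA-seq covered 3 WT/MLL-Af4 libraries and 3 I3KO/MLL-Af4 libraries. I3KO mice carried Igf2bp3 del/del, a germline deletion that arose when a floxed allele met a leaky Vav1-Cre, and WT mice were of the C57BL/6J strain. All groups carried MLL-Af4, so there was no group without the oncogene. The eCLIP was made from WT/MLL-Af4 cells, with 3 biological and 3 technical libraries from Lin- cells and 2 biological and 2 technical libraries from CD11b+ cells. The labels do not say how many animals stand behind the biological libraries, so spreads between libraries may be partly technical.

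Red cells form from progenitors in which GATA1 and KLF1 switch on the globin genes, the enzymes of heme synthesis and the proteins of the red cell membrane. The erythropoietin receptor carries the survival signal of those progenitors, ALAS2 makes the first heme precursor in erythroid cells, and hemoglobin joins α chains and β chains with heme. Late in this course the globins fill most of the cell's messenger RNA, while many factors and receptors of the progenitor stage fall. GATA1 also works in megakaryocytes, mast cells and eosinophils, and Gata1 alone therefore does not mark an erythroid cell.

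The α-globin copies and the β-globin copies share most of their sequence, which bears on every value given for a single copy. The coding sequences of Hba-a1 and Hba-a2 had 429 bases each and those of Hbb-bs and Hbb-bt 444 bases each, and within either pair 1 base differed (99.8% identity). Counted from 1 at the first base of the start codon, the differences were C381T from Hba-a1 to Hba-a2 and C417T from Hbb-bs to Hbb-bt. They are printed here because reads over any other part of the coding sequence cannot tell the copies apart. Each line gives 30 bases of coding sequence from the GENCODE M21 transcripts, 5′ to 3′, with the differing base in capitals.
Hba-a1: gcatgcctctctggaCaaattccttgcctc
Hba-a2: gcatgcctctctggaTaaattccttgcctc
Hbb-bs: ggtggctggagtggcCgctgccctggctca
Hbb-bt: ggtggctggagtggcTgctgccctggctca
Over whole transcripts, 67.5% of the 50-base words of Hba-a1 also occurred in Hba-a2, and 86.9% of those of Hba-a2 occurred in Hba-a1. The shares were 65.8% for Hbb-bs and 58.3% for Hbb-bt. With 100-base words, the shares were 56.5% and 74.5% for the α-globins and 62.6% and 54.8% for the β-globins. How the counting treated a read that matches both copies is not given in the sources used here, so the sum of a pair is less uncertain than its split, and a read lost for matching both copies would lower the sum as well.

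In mm10, Hba-a1 lies at chr11:32283511-32284465 and Hba-a2 at chr11:32296489-32297298, both on the plus strand. Hbb-bs lies at chr7:103826534-103828096 and Hbb-bt at chr7:103812524-103813996, both on the minus strand. Gata1 (chrX:7959260-7978071, minus strand) and Alas2 (chrX:150547375-150570638, plus strand) are on the X chromosome. Klf1 is at chr8:84901928-84905291 on the plus strand, Epor at chr9:21958897-21963506 on the minus strand and Slc4a1 at chr11:102348824-102366203 on the minus strand. No exon base of the 9 genes was shared with another gene of the same strand. On the opposite strand, Apex2 shared 311 of the 2403 exon bases of Alas2 (12.9%).

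RefSeq promoters (GRCm38.p6, 250 bases before to 50 after the start) were found for 8 of the 9 genes. They were searched on both strands for the letters AGATAA, a core that GATA factors bind, and CCACACCC, a core that KLF1 binds, which do not overlap each other. AGATAA stood in 11.2% of 32851 promoters, CCACACCC in 3.56% and both in 0.304%. Hbb-bs held both, with CCACACCC starting at position -93 from the start. Alas2 and Epor held AGATAA, and the windows of Hba-a1, Hba-a2, Hbb-bt, Gata1 and Klf1 held neither set of letters. No other letters were searched, so a window without a match may still hold another form of either core. The β-globin promoters are shown because they differ where the coding sequences hardly do. The lines give bases -100 to -71, chr7:103827999-103828028 for Hbb-bs and chr7:103813994-103814023 for Hbb-bt, minus strand, with the KLF1 core in capitals.
Hbb-bs: cgtagagCCACACCCtggtaagggccaatc
Hbb-bt: ctgcagggtaacaccctggcattggccaat
The longest run of bases shared by the 100 bases before the start was 14 for the β-globins and 97 for the α-globins. A match of letters is a description and not a site of binding.

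RNA levels were available as 1 mean normalized count per gene and table, which the authors took over all 6 libraries of a cell type. These means mix WT and I3KO libraries and have no error, so no value per library, no genotype comparison of these genes and no check of Igf2bp3 by genotype is given. Counts were normalized separately in the tables, so a level is read here against the other genes of its own table, as a percentile of the mean per kb of exon, and levels in the tables stand side by side with no test. In bulk RNA, fewer cells of a type and less RNA per cell cannot be told apart.

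All 4 globin genes stood in the top 5% of the CD11b+ table and far lower in the Lin- table. Gata1, Klf1 and Epor stood the other way round, in a higher percentile of the Lin- table than of the CD11b+ table. Alas2 was near the bottom of the Lin- table and in the middle of the CD11b+ table, and Slc4a1 was listed in the CD11b+ table only. Over the 23578 genes listed in both tables, 39.3% had a higher percentile in the CD11b+ table and the median difference (CD11b+ minus Lin-) was -2.31 percentile points, against 5 of the 8 erythroid genes listed in both. Of 70 further erythroid genes in 7 lists, 64 had a value in both tables, and 39 of those had a higher percentile in the Lin- table and 25 in the CD11b+ table. Late erythroid genes were split 9 and 5, as were genes of the red cell membrane and skeleton, and heme genes were split 4 and 6. The higher rank of the globins and Alas2 in the CD11b+ table was therefore not shared by most of the other genes of the mature red cell.

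For the α-globins, whose chains pair with β chains in hemoglobin, the mean normalized count of Hba-a1 was 5.85 in the Lin- table (38.0th percentile per kb) and 1268 in the CD11b+ table (95.8th percentile). Hba-a2 had means of 3.27 (34.4th percentile) and 1243 (96.3rd percentile). The differences in percentile, CD11b+ minus Lin-, were 57.8 points for Hba-a1 and 61.9 points for Hba-a2. Both α-globins thus ranked in the lower part of the Lin- table and near the top of the CD11b+ table.

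The β-globins started from a higher rank in the Lin- table. Hbb-bs had a mean of 52.2 there (57.3rd percentile) and 1083 in the CD11b+ table (95.4th percentile), a difference of 38.0 points. Hbb-bt had a mean of 181 (75.8th percentile) and 915 (95.1th percentile), a difference of 19.3 points. In the Lin- table Hbb-bt was thus the highest of the 9 genes per kb, and in the CD11b+ table it was the lowest of the 4 globins.

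The balance between chains also differed between the tables. Per kb, the α-globin means summed to 12.1 and the β-globin means to 326 in the Lin- table, a ratio of 0.0372. In the CD11b+ table the sums per kb were 3424 and 2713, a ratio of 1.26. The ratio of Hbb-bt to Hbb-bs per kb was 3.80 in the Lin- table and 0.923 in the CD11b+ table, and that of Hba-a1 to Hba-a2 was 1.47 and 0.838. In the Lin- table the α-globin means were 5.85 and 3.27, both under 10, so ratios with them there rest on low counts. A loss of reads that match both copies could also differ between the α-globins and the β-globins. The 4 globins together made up 9.0e-04% of the summed means of the Lin- table and 0.0223% of the CD11b+ table, a small part of the RNA in either.

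**Figure D1:**
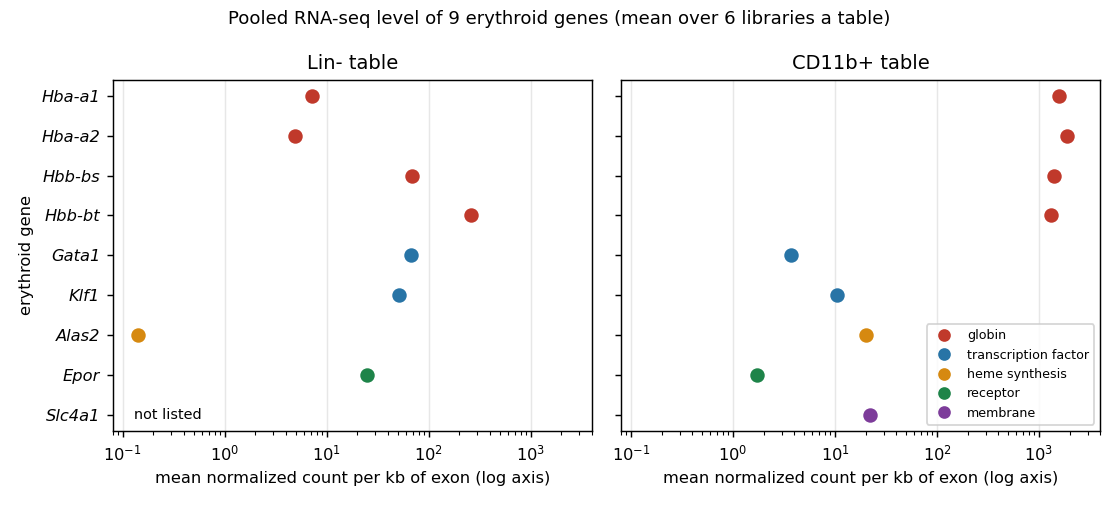
Mean normalized count per kb of exon (log axis) of the 9 erythroid genes in the Lin- table (left) and the CD11b+ table (right), 1 point for the authors' mean over 6 libraries and no error bar. The 4 globins lie together at the right of the CD11b+ panel and are spread out in the Lin- panel, where Hba-a1 and Hba-a2 lie below Hbb-bs and Hbb-bt.

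Gata1, the master factor of the erythroid and megakaryocyte lines, had a mean of 165 in the Lin- table (57.3rd percentile per kb) and 8.96 in the CD11b+ table (32.1st percentile), a difference of -25.2 points. Klf1, the factor that activates adult β-globin, had means of 79.1 (54.8th percentile) and 16.0 (41.7th percentile), a difference of -13.0 points. Both factors thus had a lower percentile in the CD11b+ table, where the globins had a higher one. In the Lin- table both factors ranked above the α-globins and below Hbb-bt, and in the CD11b+ table all 4 globins ranked above both factors. Per kb, Hbb-bs (67.9) and Gata1 (67.6) had nearly the same mean in the Lin- table, and Hbb-bs stood at 384 times Gata1 in the CD11b+ table, while Klf1 stood at 7.18 times Hba-a1 and at 0.00668 times Hba-a1. Gata1 over Klf1 was 1.31 in the Lin- table and 0.352 in the CD11b+ table. The mean of Gata1 in the CD11b+ table (8.96) was under 10, so ratios with it there rest on low counts.

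Alas2, the erythroid enzyme of the first step of heme synthesis, had a mean of 0.339 in the Lin- table, the 2.95th percentile and close to the smallest mean listed there (0.297). In the CD11b+ table it had a mean of 48.8 (47.9th percentile), a difference of 45.0 points. Per kb, Alas2 was 0.00209 times Gata1 in the Lin- table and 5.53 times Gata1 in the CD11b+ table. Both ratios rest on a mean under 10, that of Alas2 in the Lin- table and that of Gata1 in the CD11b+ table. Epor, the receptor for erythropoietin, went with Gata1: its means were 49.8 (48.4th percentile) and 3.41 (24.4th percentile), a difference of -24.0 points. Slc4a1, the anion exchanger known as band 3 of the red cell membrane, had a mean of 109 in the CD11b+ table (48.8th percentile) and no row in the Lin- table, so no value is given for it there.

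**Figure D2:**
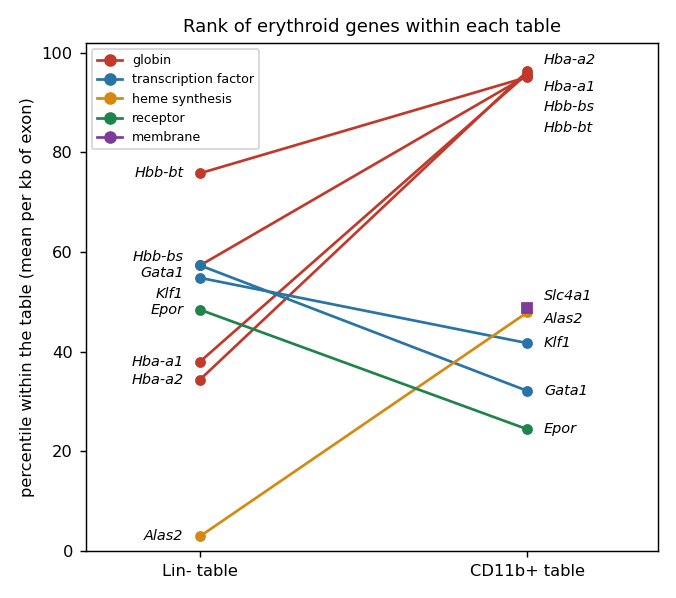
Percentile of each erythroid gene within its own table, by mean per kb of exon, with lines joining the Lin- and CD11b+ values of a gene and a square for Slc4a1, which was listed in the CD11b+ table only. The globin and Alas2 lines run upwards and those of Gata1, Klf1 and Epor run downwards.

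Other lineages were looked at through lists of marker genes. All 7 megakaryocyte markers had a higher percentile in the Lin- table, as Gata1 did, and the list's median percentile was 61.6 there and 35.8 in the CD11b+ table. Pf4, a platelet chemokine, had means of 393 and 1.80, and the platelet integrin gene Itga2b had means of 1922 and 42.9. Gp9 and Vwf, the highest of the list per kb in the CD11b+ table, had means of 15.1 and 185 there. Of the mast cell and eosinophil markers, 5 had a higher percentile in the Lin- table and 2 in the CD11b+ table, with medians of 75.7 and 58.8. Cpa3, a mast cell protease, had means of 2826 and 46.3, and Prg2, an eosinophil granule protein, 2450 and 47.3. Mcpt8 and Siglecf led this list in the CD11b+ table with means of 297 and 877, and Fcer1a had a mean of 25.6 in the Lin- table and no row in the other. The part that megakaryocyte, mast cell or eosinophil RNA has in the level of Gata1 was not tested.

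Stem and progenitor markers had a higher percentile in the Lin- table for 6 of 6 genes, led by Flt3 and Cd34 with means of 9396 and 9052 there. Hoxa9 and Ly6a led them per kb in the CD11b+ table with means of 2332 and 226. Myeloid markers were high in both tables (median percentiles 98.0 and 98.2), and 8 had a higher percentile in the CD11b+ table and 3 in the Lin- table. They were led by Mpo and Lyz2 in the Lin- table (means 101212 and 20990) and by S100a9 and S100a8 in the CD11b+ table (means 36386 and 39348). B cell markers, which a spleen holds, had a higher percentile in the CD11b+ table for 5 of 6 genes, and medians of 31.2 and 47.5. Cd79b had means of 397 in the Lin- table and 433 in the CD11b+ table, Cd79a had 146 in the CD11b+ table, and Ebf1 was the second highest per kb of the list in the Lin- table (10.3 per kb). T cell markers were low in both tables, and 3 had a higher percentile in the CD11b+ table and 1 in the Lin- table. Their means were at most 121 in the Lin- table (Lck) and 13.5 in the CD11b+ table, where Trbc2 had 6.62. Cd3e was listed in the CD11b+ table only, with a mean of 5.63. The part that RNA of other spleen cells, or of red cells that escaped lysis, has in the globin levels of the CD11b+ table was not tested.

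Itgam, the gene of the CD11b antigen used for selection, had a mean of 17.0 in the CD11b+ table and no row in the Lin- table. Gm49368, on the same strand, shared 68.7% of the exon bases of Itgam and had means of 49.1 in the Lin- table and 77.2 in the CD11b+ table. In eCLIP, Itgam had filtered peaks in 4 of 4 CD11b+ libraries and in 2 of 6 Lin- libraries. The part of the shared exon bases in the mean of Itgam was not tested.

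In eCLIP, none of the 9 erythroid genes held an IGF2BP3 peak in any library of either cell type. A gene was counted as bound when at least 1 peak that the authors had left after removing smInput signal carried its identifier. By that rule 26.5% of the genes of the Lin- table and 25.6% of the genes of the CD11b+ table were bound in at least 1 library of the cell type, against 0 of 8 and 0 of 9 erythroid genes. The count was also 0 among the peaks before the smInput filter and 0 in all 10 smInput libraries. The libraries held 4040 to 10042 (Lin-) and 7085 to 10054 (CD11b+) filtered peaks, and the number of reads behind them is unknown. A count of 0 in the 41132 filtered peaks of the Lin- libraries allows up to 0.729 peaks per 10000, and a count of 0 in the 33246 peaks of the CD11b+ libraries up to 0.902 per 10000, for counting error only and with technical libraries included. Over the biological libraries (exact permutation test, two-sided, 3 against 2) the rate on these genes was 0 in every library and p was 1, where the smallest p the design allows is 0.1. With 0 in every library no split can give another p, so the test says nothing of a difference between the cell types.

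Bound genes had a higher median mean than other genes. Of the erythroid genes, 3 of the 8 listed had a mean above the median of the Lin- table, and 6 of 9 had one above the median of the CD11b+ table. The median mean was 1707 for bound and 11.4 for other genes of the Lin- table, and 880 and 13.3 in the CD11b+ table. In the Lin- table, 6 of the 8 listed erythroid genes had means under 100, where 4.23% (under 10) and 7.03% (10 to 100) of all genes were bound. Hbb-bt and Gata1 fell between 100 and 1000, where 25.2% were bound. In the CD11b+ table, the 3 globins with means of 1000 and over, Hba-a1, Hba-a2 and Hbb-bs, fell in a range where 68.4% of all genes were bound. Among genes of that range that were no longer than Alas2, the longest of the 9, the share was 53.9%. Hbb-bt and Slc4a1 fell between 100 and 1000 in the CD11b+ table, where 35.0% of all genes were bound. Klf1 and Alas2 fell between 10 and 100 (9.68% bound), and Gata1 and Epor under 10 (6.55% bound).

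The globins are also much shorter than most genes, and so each erythroid gene was set beside the genes whose mean and genomic length were both within a factor of 2 of its own. In the CD11b+ cells, 5.24% of 248 genes like Hba-a1, 3.46% of 289 like Hba-a2, 15.4% of 280 like Hbb-bs and 10.5% of 285 like Hbb-bt were bound. The share was 12.2% for genes like Alas2, 18.2% for those like Slc4a1, 4.16% for Gata1, 2.84% for Klf1 and 2.38% for Epor. In the Lin- cells the shares ran from 1.19% for genes like Hba-a2 to 11.5% for genes like Gata1. Genes of similar mean and length were thus seldom bound, and a count of 0 in 9 genes is not set apart from these shares by any test.

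**Figure D3:**
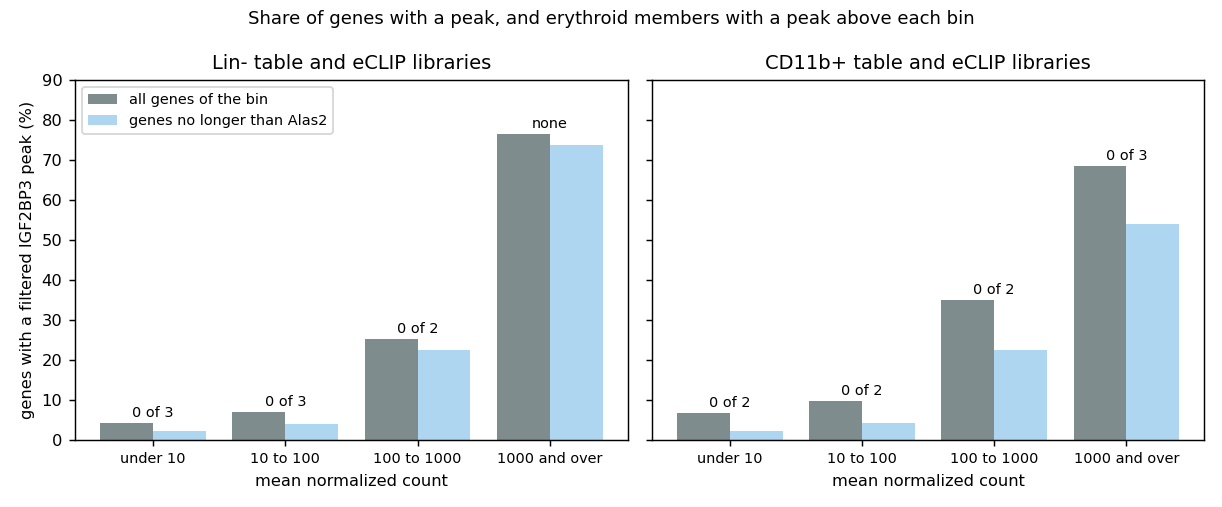
Share of genes with at least 1 filtered IGF2BP3 peak (percent, bars from 0) by mean normalized count, for all genes of a bin (grey) and for genes no longer than Alas2 (blue), with the number of the erythroid genes bound of those in the bin written above. The share in Lin- libraries rises from 4.23% to 76.5%, that in CD11b+ libraries from 6.55% to 68.4%, and 0 erythroid genes are bound in any bin.

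The only filtered peaks inside any of the 9 genes lay on the opposite strand of Alas2. They were assigned to Apex2, a DNA repair endonuclease gene whose transcript runs against Alas2, and lay in an intron of both genes. In Lin- cells the peak was at chrX:150559030-150559092 in biological replicate 2 (deposited peak p of 0.0431), and in CD11b+ cells at chrX:150559020-150559098 in biological replicate 2 (p of 0.00127). The other libraries had none there. The sequence is shown because both peaks lay over a run of CA repeats, the kind of letters that IGF2BP proteins are known to favour. Each line gives the first 30 bases of the peak on the minus strand (GRCm38.p6, chrX:150559063-150559092 and chrX:150559069-150559098), 5′ to 3′, with CACA in capitals.
Lin- peak: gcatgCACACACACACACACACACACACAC
CD11b+ peak: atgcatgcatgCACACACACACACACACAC
CACA occurred 23 times, overlapping matches counted, in the 63 bases of the Lin- peak and 25 times in the 79 bases of the CD11b+ peak. Short repeats occur at many places in the genome, and how reads over them were placed was not tested.

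Around the genes, peaks lay on neighbours. Within 50 kb of Klf1 there were 31 filtered peaks in the Lin- libraries, on Dnase2a, Farsa, Mast1 and Syce2, and 10 in the CD11b+ libraries, the nearest being 3907 and 4703 bases away, on Dnase2a. Within 50 kb of Slc4a1 there were 16 in the Lin- libraries, on Ubtf and Rundc3a, and 17 in the CD11b+ libraries, on Ubtf. Epor had 4 and 1, all on Prkcsh. Hba-a1 and Hba-a2 had the same single Lin- peak, on Nprl3, whose introns hold the enhancers of the α-globin genes, and none in CD11b+ cells. No peak lay within 50 kb of Hbb-bs, Hbb-bt or Gata1 in either cell type. For the β-globins the nearest peak was 267589 bases from Hbb-bs, in CD11b+ cells.

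Other genes of the erythroid program held peaks. Of the 64 further erythroid genes listed in each table, 28 (43.8%) were bound in Lin- cells and 25 (39.1%) in CD11b+ cells, beside 26.5% and 25.6% of all genes. A peak in at least 2 biological libraries was seen for 16 of the 64 (25.0%) in Lin- cells, beside 13.7% of all genes of that table. In CD11b+ cells it was seen for 12 of the 64 (18.8%), beside 10.2% of all genes. The rule asks for 2 of 3 libraries in Lin- cells and for 2 of 2 in CD11b+ cells, so its counts are not compared between the cell types, and it was also met in both by Zfpm1, which neither table lists. The shares were not tested, and genes with higher means were more often bound.

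Among erythroid transcription factors, 5 of 11 genes met that rule in Lin- cells and 5 in CD11b+ cells. Lmo2 and Ldb1, which bridge GATA1 to TAL1 in a DNA-bound complex, had 31 and 12 filtered peaks over the Lin- libraries and 13 and 4 over the CD11b+ libraries. Zfpm1, which encodes the GATA1 partner FOG1, had 4 and 4 peaks and was listed in neither table. Myb, a factor of the progenitor stage, had 31 and 25 peaks, with means of 22675 and 37516. Lmo2 and Myb had the highest means per kb of this list in both tables. Bcl11a, the repressor of fetal globin genes, had 19 peaks in Lin- libraries and 0 in CD11b+ libraries, and its mean was 3929 in the Lin- table (78.3rd percentile) and 44.5 in the CD11b+ table (31.2th percentile). Nfe2, a factor of globin gene control, had 2 and 8 peaks, and means of 3051 and 6132. The difference in peaks of single genes between cell types was not tested.

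In heme metabolism, 3 of 10 genes met the rule in Lin- cells and 2 in CD11b+ cells. Alas1, which does in other cells what ALAS2 does in erythroid cells, had 6 peaks in the Lin- libraries and 20 in the CD11b+ libraries, with means of 3502 (88.0th percentile) and 9442 (95.7th percentile). Ppox, an enzyme of the late steps of the pathway, had 2 peaks in Lin- libraries and 0 in CD11b+ libraries. Fech, which inserts iron in the last step, had 0 and 5. Hmox1, which breaks heme down, had the second highest mean per kb of the list in both tables (means 914 and 1634) and no peak. So of the isoenzymes that start heme synthesis, Alas1 had peaks and Alas2 had none, and per kb the mean of Alas1 was above that of Alas2 in both tables (567 and 0.141 in the Lin- table, 1529 and 20.3 in the CD11b+ table).

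Of 7 iron genes, 4 met the rule in Lin- cells and 3 in CD11b+ cells. Tfrc, the transferrin receptor, had 16 peaks in Lin- libraries and 1 in CD11b+ libraries, with means of 10676 and 1269. The ferritin chain genes Fth1 and Ftl1 had 18 and 23 peaks in Lin- libraries and 2 and 5 in CD11b+ libraries, and their means per kb were the highest of the list in both tables. Slc25a37, the mitochondrial iron importer mitoferrin, had 7 and 13 peaks, and Steap3, an iron reductase, 0 and 4. Downstream of the erythropoietin receptor, Lyn had 6 and 15 peaks, although Epor itself had none. Stat5b had 3 peaks in Lin- libraries, 1 in each biological library, and 5 in CD11b+ libraries, all in the technical ones and 0 in the biological ones. Lyn and Stat5b had the highest means per kb of their list in both tables.

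For genes of the mature red cell the counts stand beside low levels, with median percentiles per kb in the Lin- and CD11b+ tables of 36.6 and 30.5 for membrane and skeleton genes and 51.0 and 34.8 for late erythroid genes. Of 14 membrane and skeleton genes, Epb41 (2 and 9 peaks) met the rule in both cell types and the glucose transporter gene Slc2a1 (5 and 2 peaks) in Lin- cells. Gypc, a glycophorin gene, had the highest mean per kb of this list in both tables (means 1143 and 434) and no peak. Of 14 late erythroid genes, the nuclear exporter gene Xpo7 (4 and 1 peaks) met the rule in Lin- cells and Trim58 (4 and 4 peaks) in CD11b+ cells. Trim58 did so with a mean of only 4.19 in the CD11b+ table (25.5th percentile). Of the genes with means under 10 there, 6.55% were bound in at least 1 library. Car2 and Xpo7 led the list per kb in the Lin- table with means of 631 and 3925, and Bpgm and Xpo7 in the CD11b+ table with 240 and 1188. Of the minor and embryonic globins, Hbq1a and Hbq1b had means of 0.638 and 0.446 in the Lin- table and 1.17 and 1.33 in the CD11b+ table, while Hba-x, Hbb-y, Hbb-bh1 and Hbb-bh2 were listed in neither and held no peak. The symbol Ahsp was not matched and has no value here.

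**Figure D4:**
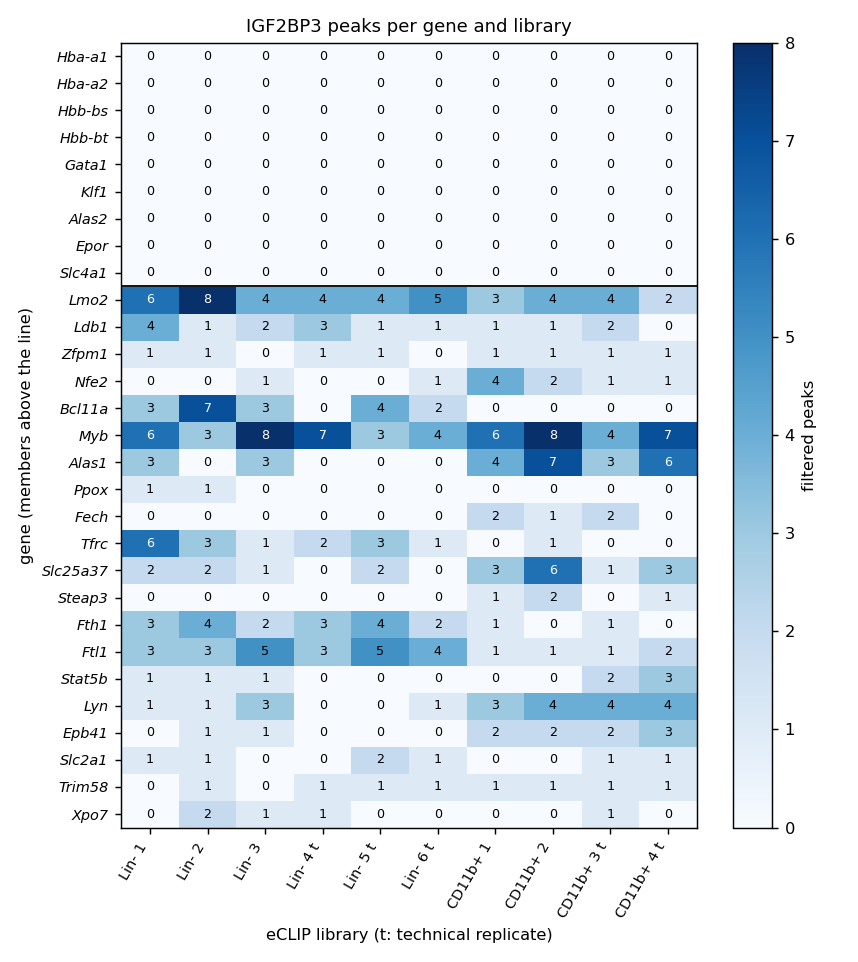
Filtered IGF2BP3 peaks (number in each cell, darker for more) by gene and eCLIP library, for the 9 erythroid genes above the line and, below it, further erythroid genes with a peak in at least 2 biological libraries of a cell type (1 of the 21 such genes is not shown). All cells of the 9 genes hold 0, while Lmo2, Myb and Ftl1 have peaks in all 10 libraries.

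The rate of peaks on all erythroid genes, the 9 included, was compared between the cell types. Peaks on these genes per 10000 filtered peaks were 57.1, 45.8 and 46.1 in the biological Lin- libraries and 43.4 and 44.8 in the biological CD11b+ libraries. The lowest Lin- library lay above the highest CD11b+ library, by less than the spread of the Lin- libraries. The means were 49.6 ± 6.42 (SD, n = 3) and 44.1 ± 0.945 (SD, n = 2), a difference of -5.55 per 10000 (CD11b+ minus Lin-), and the exact two-sided permutation test gave p = 0.400. The technical libraries had 64.4, 50.8 and 55.4 in Lin- cells and 43.5 and 53.6 in CD11b+ cells. Without biological Lin- replicate 1, the difference was -1.84.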

How the data were processed

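The members and gene lists were chosen with earlier results of these data known. Strand-specific poly(A) RNA-seq reads had been aligned by the authors to mm10 with STAR 2.5.3a and compared with DESeq2 (with fdrtool for Lin- cells). The deposited tables hold, per gene, the mean normalized count over 6 libraries, treated as a signal value with no error, and the authors' fold changes, errors and p-values for I3KO against WT, which were not used. eCLIP peaks had been called per library by the authors with CLIPper and filtered on smInput, and the deposited score of a peak, at most 0.05, was read as its p. Per the file headers, inputs and eCLIP libraries were processed with different duplicate and peak settings.

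Gene identifiers were matched to GENCODE M21 (26503 of 26560 and 25837 of 25887). Means were divided by the union of exons and ranked within a table. Peaks were assigned by the identifier they carry. Rates were compared over biological libraries with an exact two-sided permutation test, at a threshold of 0.05, whose code was tested on simulated data. Named genes were the 9 members and, of each list, the 2 with the highest mean per kb in each table, those with peaks in at least 2 biological libraries of a cell type, and those absent from a table. A few items that this rule or the checks would name are not reported here. Of the alternatives, 32 were planned and 3 were added after seeing the data. Python 3.11.15, NumPy 2.4.6 and pandas 2.3.3 were used.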

Additional observations from a re-analysis of the deposited data

Results flagged for a closer look

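Among CD11b+ eCLIP libraries, technical replicate 4 had 53.6 peaks on erythroid genes per 10000 filtered peaks. The other 3 libraries lay between 43.4 and 44.8. The value of replicate 4 rests on 38 peaks among 7085 and lies within the range of the Lin- libraries (45.8 to 64.4). Whether the gap exceeds counting error was not tested. Of such checks for outlying libraries, 4 were made, and chance alone flags about 1 in 20.

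The smInput libraries, which no comparison above uses, held peaks on some erythroid genes. Tal1, a partner of GATA1, had an input peak in 8 of 10 libraries, and its peaks in all 6 Lin- and 4 CD11b+ eCLIP libraries before the smInput filter were gone after it. Cpox, a heme enzyme gene, had an input peak in 6 libraries and none in eCLIP. Fth1 had one in 5.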

How the results depend on the processing

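None of the 9 genes was bound under 7 of 8 alternatives in CD11b+ cells and 8 of 9 in Lin- cells. The exception, added after seeing the data, counted a peak on either strand and gave 1 gene in each cell type, Alas2, through the peak of Apex2. Settings that kept only some of the filtered peaks could give only 0, so they say nothing of stability. These were biological libraries alone, at least 2 of them, a peak p below 0.001 and 1 library left out. Peaks before the smInput filter and overlap on the gene's own strand could have given another count, and gave 0. The median percentile of the members was 51.6 in the Lin- table and 48.8 in the CD11b+ table. Without division by exon length it was 49.5 and 55.9, with the longest transcript in place of all exons 50.8 and 48.1, and among genes with a mean of at least 10 it was 23.3 and 19.0. With globin copies summed it was 47.9 in the CD11b+ table, and with Slc4a1 at percentile 0 it was 48.4 in the Lin- table. The peak rate on erythroid genes differed by -5.55 per 10000. Of its 10 alternatives, 9 had at most 10 splits and could not reach a p under 0.05, so they say nothing of stability by p. The other, over all libraries, had 210 splits and gave -6.93 (exact permutation p = 0.129). The difference was below 0 under all 10. The labels number the libraries, but nothing says that equal numbers share an animal. A replicate block over equal numbers, pairing replicates 1 and 2, gave a difference of -7.34 (exact permutation p = 0.500). For the rate on the 9 genes it could give only 0, since no library held a peak on them. Leaving out 1 library at a time gave -7.47 to -1.84. Depth is unknown for eCLIP, and the pooled means carry no error.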
